A study of Mus musculus with 8 samples.

Results

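Among autosomal protein-coding genes of the mouse, 675 promoters were methylated at 60% or more in one vehicle-treated mammary tumor library and are described here across 4 treatments. They were selected on vehicle replicate 1 alone, out of 11576 promoters (5.83%) in which at least 3 cytosines were covered by at least 10 reads in all 8 libraries. A promoter reached from 1000 bp before to 1000 bp after the start of the gene in the GENCODE M21 annotation, and its methylation was the percentage of methylated reads pooled over its covered cytosines. Since the threshold was applied to vehicle replicate 1, the value of that library is given as a description, and comparisons rest on the other 7 libraries.

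Reduced representation bisulfite sequencing (RRBS), which reads CpG-dense fragments after bisulfite has converted unmethylated cytosines, was performed on tumors grown from NIC-5231 cells, a mouse line from an ErbB2-driven mammary tumor. The cells were grafted in the mammary gland of NSG mice aged 5 to 7 weeks, which lack T, B and NK cells, and each group of 5 mice was injected intraperitoneally every 2 days. The 4 groups received vehicle (saline with PEG and DMSO, shared by all groups), C29 (10 mg/kg), the DNA methyltransferase inhibitor 5-azadC (1 mg/kg), or C29+5-azadC, both at these doses. Each group had 2 libraries, and each library pooled the tumor DNA of 2 mice. Graft and host are both mouse, so tumor cells and host stroma cannot be told apart in the reads, and all grafts came from 1 cell line.

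Methylation of the CpGs around a start site is copied to the new DNA strand by DNMT1 at each replication and is a mark of silenced promoters. CpG-dense promoters (CpG islands) are usually free of it, while CpG-poor promoters and those of germline genes are commonly methylated in tissues that do not use the gene. 5-azadC (decitabine) is a cytidine analog that is built into DNA and traps DNA methyltransferases, so methylation is lost as cells divide. C29 is an inverse agonist of ERRα, an orphan nuclear receptor that drives genes of energy metabolism.

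Sequenced stretches of 7 members are shown in the GRCm38/mm10 build, in the direction of the gene, with each CpG measured in all 8 libraries in capitals. The first 3 are from promoters with methylation over 80% in every library, and the other 4 from promoters with all 4 libraries with 5-azadC below the 3 without it. Lrrc10 and Lhb were chosen for this after their values were seen.
Sycp1: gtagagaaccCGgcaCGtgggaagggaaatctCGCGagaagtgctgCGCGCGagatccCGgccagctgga
Hormad1: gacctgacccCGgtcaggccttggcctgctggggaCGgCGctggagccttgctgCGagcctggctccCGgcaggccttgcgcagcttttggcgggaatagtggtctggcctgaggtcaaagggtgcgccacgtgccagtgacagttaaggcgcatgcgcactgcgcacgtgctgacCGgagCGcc
Zfp541: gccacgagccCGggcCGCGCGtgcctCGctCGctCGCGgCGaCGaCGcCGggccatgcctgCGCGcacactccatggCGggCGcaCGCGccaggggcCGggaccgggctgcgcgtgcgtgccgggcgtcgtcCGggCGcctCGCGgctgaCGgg
Gm10775: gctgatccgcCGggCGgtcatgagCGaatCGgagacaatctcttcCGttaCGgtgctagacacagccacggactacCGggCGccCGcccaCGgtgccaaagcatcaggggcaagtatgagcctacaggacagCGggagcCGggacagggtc
Sohlh2: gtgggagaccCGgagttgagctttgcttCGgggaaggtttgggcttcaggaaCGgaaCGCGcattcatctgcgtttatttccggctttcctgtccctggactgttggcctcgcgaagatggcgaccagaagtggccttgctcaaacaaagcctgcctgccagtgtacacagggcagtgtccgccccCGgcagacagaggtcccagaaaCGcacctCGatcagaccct
Lrrc10: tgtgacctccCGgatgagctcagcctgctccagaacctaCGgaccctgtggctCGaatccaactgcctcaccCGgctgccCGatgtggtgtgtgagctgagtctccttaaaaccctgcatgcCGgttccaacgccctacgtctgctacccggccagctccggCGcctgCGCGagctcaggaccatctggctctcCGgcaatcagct
Lhb: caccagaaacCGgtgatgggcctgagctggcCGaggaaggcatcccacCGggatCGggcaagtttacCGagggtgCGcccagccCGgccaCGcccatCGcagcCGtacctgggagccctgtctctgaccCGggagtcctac

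The Sycp1 stretch (chr3:102936138-102936207, minus strand) lay at positions -107 to -38 bp from the start of a gene for a synaptonemal complex protein, and all of its 8 CpGs were measured. The Hormad1 stretch (chr3:95559492-95559676, plus strand) ended 1 bp before the start of another meiotic gene, and 7 of its 15 CpGs were measured. The Zfp541 stretch (chr7:16061660-16061813, plus strand), before a zinc finger gene of male meiosis, was the densest, with 24 of 32 CpGs measured. Of the stretches from promoters that were lower with 5-azadC, that of Gm10775 (chr13:65259321-65259471, plus strand) lay upstream of the start with 12 of 14 CpGs measured. That of Sohlh2 (chr3:55182328-55182554, plus strand), a germ cell transcription factor, lay in an intron with 8 of 14 CpGs measured. That of Lrrc10 (chr10:117045753-117045958, plus strand), a cardiac leucine-rich repeat protein, was in coding exon sequence with 10 of 14 CpGs measured. That of Lhb (chr7:45420062-45420202, plus strand), which encodes the beta chain of luteinizing hormone, lay at positions -758 to -618 bp with all 11 CpGs measured.

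The libraries held 51359825 to 81299065 reads over cytosines, with a median of 21 to 30 reads per listed cytosine. Spike-in controls were read as 0.216% to 0.329% methylated for the unmethylated and 97.5% to 98.3% for the methylated DNA. A member was covered by a median of 6 cytosines (range 3 to 95) and by a median of 294.5 reads per library (quartiles 168.75 and 550.25). At 294 reads, a methylation of 80% has a 95% Wilson interval of 74.98% to 84.1%, which covers counting error only since PCR copies were not marked. The members held 6527 distinct cytosines, and 38 members shared cytosines with another member, so that pairs such as Smc1b and Ribc2 have the same values.

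Mean methylation of the 675 members was 81.4% in vehicle replicate 1, which chose them, and 77.04% in vehicle replicate 2, a difference of -4.40 percentage points. In vehicle replicate 2, 557 members (82.5%) were again at 60% or more, while 63 (9.33%) were below 50%. Selecting on vehicle replicate 2 instead gave 667 promoters, with a mean of 81.3% there and 77.2% in vehicle replicate 1, so the library that chose the promoters was the higher one either way. The 557 promoters found by both made up 82.5% of the first set and 83.5% of the second. Around the threshold the choice turned on small differences. Des (desmin, 60%) and the shared promoter of Smc1b and Ribc2 (60.02%) were just inside, and Hoxa11 (59.9%), Mmp2 (59.9%) and Tex19.2 (59.7%) were just outside.

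The treated libraries had lower means than vehicle replicate 2. C29 tumors had 74.98% and 70.3%, 5-azadC tumors 68.4% and 70.4%, and C29+5-azadC tumors 71.6% and 70.7%. The 4 libraries with 5-azadC therefore lay between 68.4% and 71.6%, below vehicle replicate 2 and C29 replicate 1, and C29 replicate 2 lay among them. Against vehicle replicate 2, a single library with no spread of its own, the differences were -4.42 points for C29 (group SD 3.34), -7.63 points for 5-azadC (SD 1.43) and -5.92 points for C29+5-azadC (SD 0.615, n = 2 each). The combination was 1.71 points above 5-azadC alone and 1.50 points below C29 alone (-1.50), and 5-azadC was 3.21 points below C29 (-3.21), where the libraries of the 2 groups overlapped. The difference left after adding the single effects (combination minus both single drugs plus vehicle replicate 2) was 6.14 points. No test of 2 libraries against 2 can give an exact permutation p below 0.333. The treated libraries were also below vehicle replicate 2 in promoters at 20% to below 60% in vehicle replicate 1. There the differences were -4.31 points for C29, -4.79 points for 5-azadC and -3.84 points for C29+5-azadC.

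**Figure D1:**
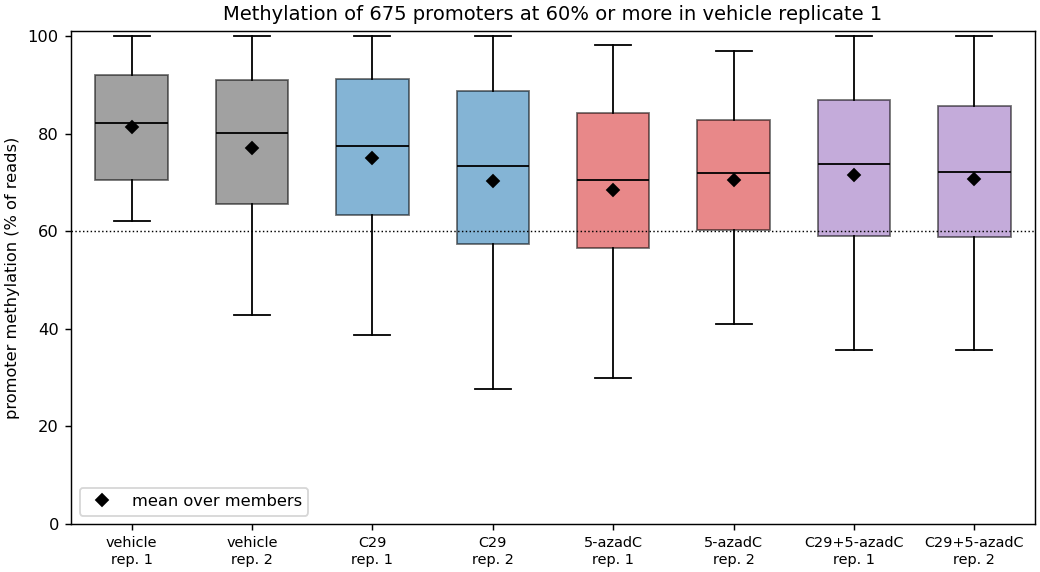
Methylation (percent of reads, vertical axis) of the 675 members in each of the 8 libraries. Boxes span the quartiles with the median as a line, whiskers reach the 5th and 95th percentiles, diamonds are means and the dotted line is the 60% threshold; vehicle replicate 1 chose the members, and the means of the 4 libraries with 5-azadC sit between 68.4% and 71.6%.

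Over both drug contrasts, the 4 libraries with 5-azadC averaged 70.3% ± 1.34 (SD, n = 4) and the 3 without it 74.1% ± 3.48 (SD, n = 3), a difference of -3.83 points whose libraries overlapped. Without C29 replicate 2 the difference was -5.75 points, and without vehicle replicate 2 it was -2.35 points. For C29, the 4 libraries with it averaged 71.9% ± 2.14 and the 3 without it 71.9% ± 4.52, a difference of -0.0824 points. It was 2.46 points without vehicle replicate 2 and -1.86 points without 5-azadC replicate 1, the extremes over single libraries left out. With vehicle replicate 1 left out, 2 of the 4 libraries with either drug also had the other, against 2 of the 3 without it. These and later differences in points with and without a drug are of plain means, not adjusted for this. Without 5-azadC, C29 differed by -4.42 points (from vehicle replicate 2), and with 5-azadC by 1.71 points. Without C29, 5-azadC differed by -7.63 points (from vehicle replicate 2), and with C29 by -1.50 points. A comparison of 4 libraries with 3 has a smallest possible exact permutation p of 0.0571, and no p is given for means over members chosen from these data.

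Fewer members were highly methylated in the libraries with 5-azadC. Members at 80% or more numbered 341 in vehicle replicate 2 (50.5%), 308 and 281 in the C29 libraries (45.6% and 41.6%), 220 and 219 with 5-azadC (32.6% and 32.4%), and 257 and 243 with the combination (38.1% and 36.0%). The 4 counts with 5-azadC were thus below the 3 without it. The 207 members that vehicle replicate 1 placed at 90% or more showed the same order. Their mean was 89.0% in vehicle replicate 2, 88.3% and 85.4% with C29, 81.8% and 82.1% with 5-azadC and 82.0% and 84.4% with the combination. Among the 165 members at 60% to 70% in vehicle replicate 1 the groups overlapped, with 62.4% in vehicle replicate 2, 59.1% and 52.5% with C29, and 53.2% to 58.0% in the 4 libraries with 5-azadC.

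Few members were near 0% in the libraries with 5-azadC. In all 8 libraries 278 members (41.2%) were at 60% or more, 70 at 80% or more and 10 at 90% or more, among them Mael, a piRNA pathway gene, and Btbd18, a regulator of piRNA precursor transcription. In all 4 libraries with 5-azadC 16 members were below 50%, and 1, Myadml2, was below 30%. Myadml2 was at 9.71% in vehicle replicate 2 and 0% in both C29 libraries as well, from 33 reads in the shallowest library, so only the library that chose it was high (60.6%). The genes of these counts were named after their values were seen. Rag1, which encodes a V(D)J recombinase subunit, was also among the 16, at 35.5% in vehicle replicate 2 against 66.7% in vehicle replicate 1, and shared its cytosines with B230118H07Rik.

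Single promoters varied widely between libraries of one group. The median gap between replicates was 10.2 points for C29, 10.1 for 5-azadC and 10.7 for C29+5-azadC, and 102 to 104 members differed by at least 25 points. Compared with vehicle replicate 2, both C29 libraries were lower in 276 members (40.9%, against 30.8% of all promoters) and higher in 161 (23.9%, against 19.4%). Both 5-azadC libraries were lower in 366 (54.2%, against 32.6%) and higher in 106 (15.7%, against 17.8%). Both combination libraries were lower in 313 (46.4%, against 31.5%) and higher in 141 (20.9%, against 16.5%). The 3 comparisons share vehicle replicate 2.

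Promoter by promoter, edgeR's quasi-likelihood test on methylated and unmethylated reads, with both drugs as terms and Benjamini-Hochberg adjustment over all 11576 promoters, called 2 members for 5-azadC, Gm10800 and Gm10801. Over all promoters 15 were called for 5-azadC (0.13%), which became 1 without vehicle replicate 2 or C29+5-azadC replicate 2, 2 without either 5-azadC library, 4 without C29+5-azadC replicate 1, 7 without C29 replicate 1 and 14 without C29 replicate 2. For C29 it called 0 members and 0 promoters (0%), as did limma and a logistic F test, while a likelihood-ratio test that ignores the spread between libraries called 447 members and 6487 of the 11576 promoters. At an unadjusted p below 0.05 there were 87 members (12.9%) for 5-azadC, 70 of them lower and 17 higher, against 4.73% of all promoters, and 65 members (9.63%) for C29, 48 lower and 17 higher, against 4.2% of all promoters. Lower and higher here give the sign of the difference of plain means. It was not adjusted for the other drug and can differ from the sign of the fitted term. For the interaction of the drugs 1 member was called (against 0.0346% of all promoters) and 67 members (9.93%) had an unadjusted p below 0.05, against 3.85% of all promoters. Most promoters outside the members were near 0% methylation (9753 of 11576 were below 20% in vehicle replicate 1), where a decrease has little room.

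By order alone, all 4 libraries with 5-azadC were below the 3 without it in 54 members (8%), against 3.01% of all promoters, and above them in 13 members (1.93%), against 1.51%. Among the 1148 promoters at 20% to below 60% in vehicle replicate 1 these shares were 4.44% and 2.00%. For C29, 14 members (2.07%) had all 4 libraries below the 3 others and 14 (2.07%) above, against 2.13% and 1.48% of all promoters. The median member was 3.75 points lower with 5-azadC (-3.75, quartiles -9.78 and 1.63), and 461 of 675 members (68.3%) were lower, while the median over all covered promoters was 0. For C29 the median over members was 0.180 points and over all promoters 0, without adjustment for the unequal share of 5-azadC libraries.

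Both called members, predicted genes of chromosome 2, had very deep coverage. Gm10800 (minus strand, start at base 98667301) was covered by 1223606 to 2205989 reads in a library over 33 cytosines. Its methylation was 91.8% in vehicle replicate 1, 91.7% in vehicle replicate 2, 92.0% and 91.8% with C29, 86.5% and 86.4% with 5-azadC, and 87.9% and 88.1% with the combination. All 4 libraries with 5-azadC were below the others, by 4.62 points on average (87.2% ± 0.868, n = 4, against 91.8% ± 0.184, n = 3, SD), and it fell at an edgeR adjusted p of 1.64e-12. Gm10801, its neighbor, was covered by 171705 to 269730 reads and fell by 3.75 points, from 89.996% ± 1.12 (n = 3) to 86.2% ± 1.00 (n = 4, SD), at an edgeR adjusted p of 1.55e-05. Whether reads from like copies elsewhere in the genome entered these values was not tested. Without the 0.1% of cytosines of highest coverage 0 members were called (14 over all promoters), and the differences were -10.9 points for Gm10800 and -7.83 points for Gm10801. With the dispersion that edgeR estimates 1 member was called (1 over all promoters). Without vehicle replicate 2 or without C29+5-azadC replicate 2, 1 was called (1 over all promoters in each).

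Of the members with at least 200 reads in every library (282), the 8 of largest mean decrease with 5-azadC and no overlap were 1700028K03Rik, Lrrtm2, Lyl1, Gkap1, Gm10775, Sohlh2, Nrn1l and Grk1. None passed the adjusted threshold (edgeR adjusted p 0.146 to 0.785). 1700028K03Rik (chromosome 5, plus strand, start at base 107534709) was at 62.9% in vehicle replicate 2, 55.5% and 58.5% with C29, 32.8% and 28.5% with 5-azadC, and 30.4% and 34.5% with the combination. All its libraries with 5-azadC were at or under 34.5% and the others at or over 55.5%, from 31.5% ± 2.66 (n = 4) against 58.9% ± 3.69 (n = 3, SD), the widest difference of the 8 at -27.4 points (edgeR adjusted p = 0.403). Its 95% Wilson intervals reached from 24.5% to 40.3% over the libraries with 5-azadC and from 50.4% to 68.0% over the 3 without it.

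Lrrtm2, a synaptic adhesion protein, was at 93.2% in vehicle replicate 2, 73.7% and 72.8% with C29, 47.8% and 56.7% with 5-azadC and 62.7% and 59.0% with the combination. Lyl1, a blood stem cell transcription factor, was at 100% in vehicle replicate 2, 84.4% and 77.2% with C29, 73.5% and 76.2% with 5-azadC and 45.3% and 69.8% with the combination. Gm10775, whose upstream stretch is printed above, was at 98.3% in vehicle replicate 2, 87.3% and 87.9% with C29, 72.7% and 79.7% with 5-azadC, and 74.9% and 69.3% with the combination. In each of these the 5-azadC libraries were lower without overlap, by 23.4, 21.0 and 17.0 points (-23.4, -21.0 and -17.0), and in Lyl1 the library that chose the members was also low, at 74.5%.

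Sohlh2 showed the spread that 2 libraries of a group can have. It was fully methylated (100%) in vehicle replicate 2 and C29 replicate 1 and at 94.0% in C29 replicate 2, then at 62.1% and 90.3% with 5-azadC and 83.2% and 88.9% with the combination. Grk1, the rhodopsin kinase of rod cells, was between 94.2% and 99.8% in the 3 libraries without 5-azadC and between 74.2% and 91.5% in the 4 with it. In vehicle replicate 1, which chose the members, Grk1 was at 89.3%, below its highest value with 5-azadC. Nrn1l ranged from 93.5% to 100% without and from 76.0% to 90.9% with 5-azadC, and Gkap1, a cGMP-dependent kinase anchoring protein, from 75.9% to 90.3% without and from 59.3% to 73.1% with it.

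**Figure D2:**
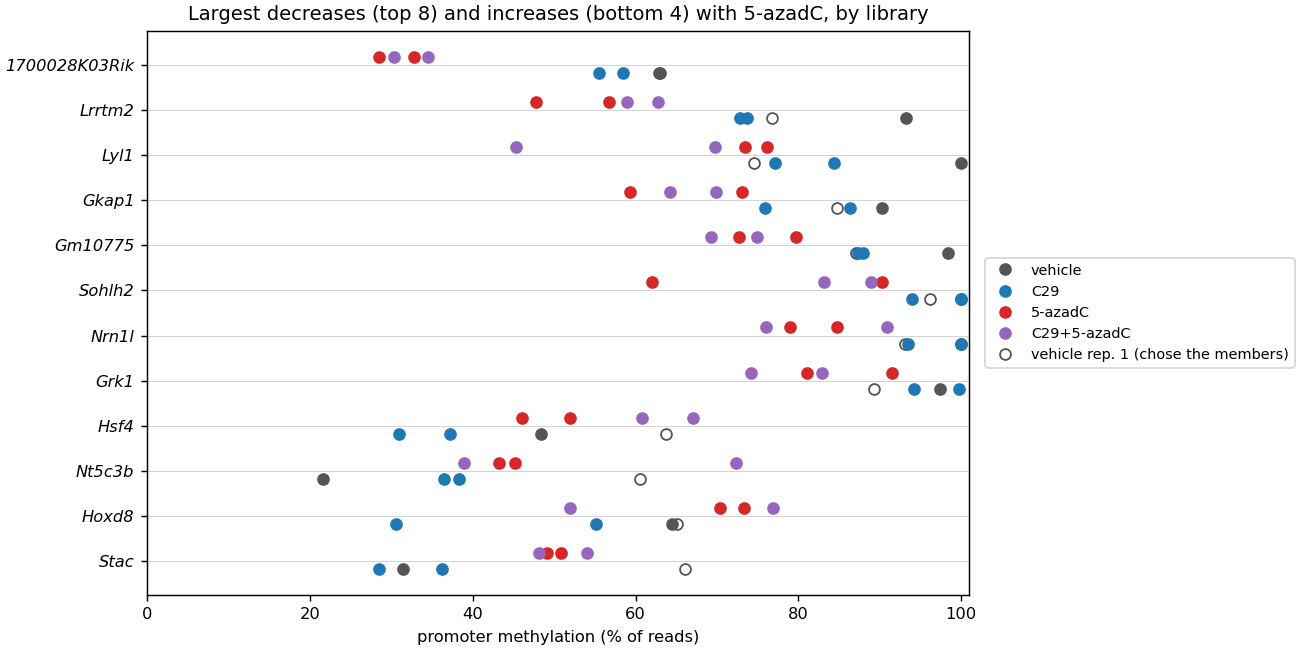
Methylation (percent of reads, horizontal axis) in each library of the 8 members of largest decrease without overlap (top) and the 4 of largest increase (bottom), 1 gene per row. Libraries with 5-azadC are drawn above the row line and the others below it, and the open circle is vehicle replicate 1; in 1700028K03Rik the libraries with 5-azadC lie at 28.5% to 34.5% and those without at 55.5% or more.

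Lrrc10 and Lhb were covered by at least 1543 and 962 reads in each library. Lrrc10 was at 82.4% in vehicle replicate 2, 80.4% and 77.7% with C29, 64.0% and 66.1% with 5-azadC, and 63.1% and 73.5% with the combination, a difference of -13.5 points (edgeR adjusted p = 0.0608). In the coding stretch printed above the values were 82.2% in vehicle replicate 2, 79.5% and 76.0% with C29, 57.4% and 61.3% with 5-azadC, and 68.1% and 73.4% with the combination. Lhb was at 86.6% in vehicle replicate 2, 82.4% and 81.8% with C29, 71.6% and 75.3% with 5-azadC, and 80.9% and 71.7% with the combination (-8.73 points, edgeR adjusted p = 0.639). In its upstream stretch the groups overlapped, with 79.3%, 61.6% and 66.2% without 5-azadC and 56.8% to 78.8% with it. The printed stretch thus did not show the separation of libraries seen over the whole Lhb promoter.

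The 4 members of largest mean increase with at least 200 reads were Stac, Hoxd8, Nt5c3b and Hsf4, by 18.5, 18.1, 17.8 and 17.6 points (edgeR adjusted p 0.239 to 1). Hoxd8, a homeobox gene of limb and trunk patterning, was at 64.5% in vehicle replicate 2, 55.2% and 30.5% with C29, 70.4% and 73.3% with 5-azadC, and 76.9% and 51.9% with the combination. The difference was 8.30 points without C29 replicate 2. With a coverage minimum of 20 reads it turned to -10.8 points. Stac, an adaptor protein of muscle and neurons, was at 31.4% in vehicle replicate 2 against 66.1% in vehicle replicate 1, and at 48.1% to 54.0% in the 4 libraries with 5-azadC. Nt5c3b was likewise at 60.5% in vehicle replicate 1 and 21.5% in vehicle replicate 2, so both were at 60% or more only in the library that chose them, apart from 72.3% for Nt5c3b in C29+5-azadC replicate 1. With single libraries left out, the difference of Nt5c3b was 10.3 to 21.4 points.

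The 8 members of highest methylation in their lowest library, with at least 200 reads and 10 cytosines, were Btbd18, Hsf5, Gm10800, Hormad1, Zglp1, Pbp2, Gm10801 and Zfp541. Btbd18 was at 93.8% to 97.1% in the 7 libraries, with 95.4% ± 1.21 (n = 4) with 5-azadC and 95.7% ± 1.56 (n = 3, SD) without it. Hsf5, a heat shock factor family member of spermatocytes, was at 96.4% to 100% without and 87.5% to 95.1% with 5-azadC, a difference of -6.41 points (edgeR adjusted p = 0.741). Zglp1, a transcription factor of oogenesis, was at 94.3% to 100% without and 85.3% to 97.4% with it, so its libraries overlapped. Pbp2 was at 93.4% to 96.0% without and 85.2% to 89.99% with it (-5.93 points, edgeR adjusted p = 1).

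In the printed stretches of the 3 members over 80% in every library, methylation was also over 80% in each library. Sycp1 was at 84.3% in vehicle replicate 2, 87.8% and 95.5% with C29, 85.6% and 84.95% with 5-azadC, and 88.0% and 83.5% with the combination. Hormad1 was at 93.3%, then 89.2% and 94.1%, 88.4% and 93.6%, and 91.3% and 93.3% in the same order. Zfp541 was at 93.7%, then 94.7% and 88.9%, 92.5% and 90.04%, and 92.7% and 88.9%. In these stretches the libraries with and without 5-azadC overlapped in all 3 genes.

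Members differed from other covered promoters in sequence, a property that the rule did not use. The ratio of observed to expected CpGs, which is low where CpGs have been lost from a sequence, had a median of 0.383 (quartiles 0.275 and 0.512) in members and 0.645 (0.538 and 0.748) in the other 10901 promoters. Members held a median of 48 CpGs and 6 CCGG sites, at which the restriction enzyme of the assay cuts, against 95 and 11 in the others, and 6 measured cytosines against 19. Their GC content had a median of 52.0% against 55.2%.

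The share of members was lower at higher CpG density. Of the 724 covered promoters with an observed to expected ratio below 0.35 (CpG-poor), 296 were members (40.9%), against 282 of 4045 (6.97%) from 0.35 to below 0.6 and 97 of 6807 (1.43%) at 0.6 or more (CpG-rich). These limits were chosen after the data were seen.

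The difference between libraries with and without 5-azadC also varied with CpG density. In the 296 CpG-poor members the mean was 79.7% in vehicle replicate 2, 78.6% and 77.1% with C29, 69.6% and 71.7% with 5-azadC, and 72.8% and 72.5% with the combination. All 4 libraries with 5-azadC were below the 3 without it, at 71.6% ± 1.45 (n = 4) against 78.5% ± 1.32 (n = 3, SD), a difference of -6.83 points. In the 97 CpG-rich members the mean was 71.8% in vehicle replicate 2, 68.6% and 60.9% with C29, 67.2% and 68.8% with 5-azadC, and 70.7% and 69.0% with the combination. Here the libraries overlapped, at 68.9% ± 1.41 (n = 4) against 67.1% ± 5.61 (n = 3, SD), and the difference of 1.82 points became -1.29 points without C29 replicate 2, the lowest library of this class. CpG-poor members were also higher than CpG-rich ones in vehicle replicate 2, and level and CpG density were not told apart. Among promoters at 20% to below 60% in vehicle replicate 1 the differences were -3.96 points (CpG-poor) and -0.842 points (CpG-rich), both with overlap.

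Within each library, the CpG-poor mean minus the CpG-rich mean was 7.96 points in vehicle replicate 2, 9.94 and 16.2 points with C29, 2.33 and 2.92 points with 5-azadC, and 2.10 and 3.53 points with the combination. The 4 values with 5-azadC were below the 3 without it, by 8.65 points on average (-8.65), and by 6.22 points (-6.22) without C29 replicate 2. With the lowest and highest of 3 equal groups of members by the same ratio, the difference was -7.46 points. The intermediate class of 282 members was at 76.0% in vehicle replicate 2, 73.4% and 66.3% with C29, 67.6% and 69.7% with 5-azadC, and 70.6% and 69.4% with the combination.

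**Figure D3:**
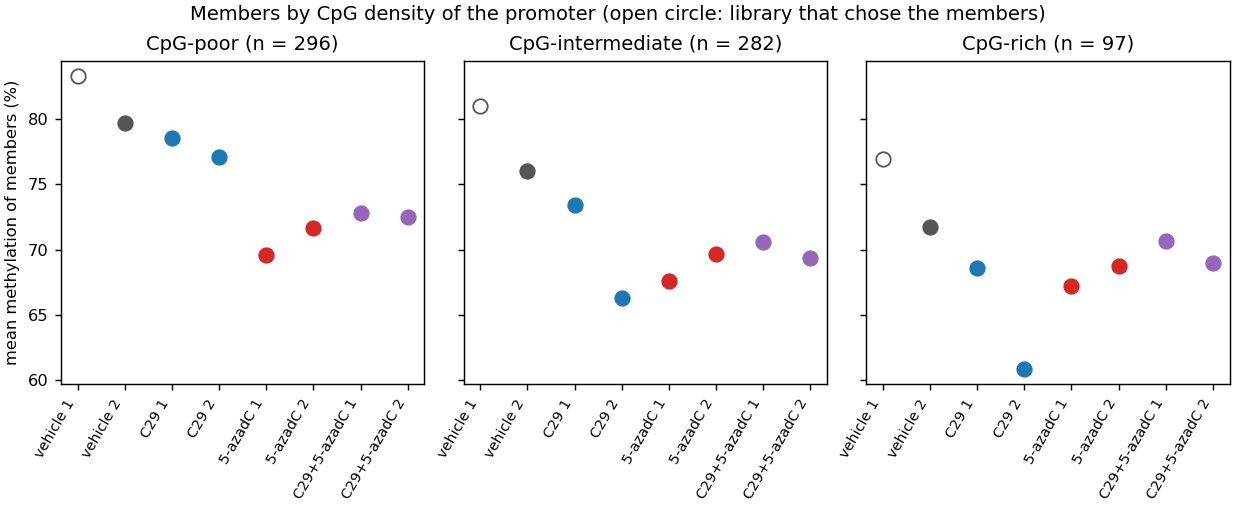
Mean methylation (percent, vertical axis, which starts above 0) of the members in each library, in 3 panels by the ratio of observed to expected CpGs in the promoter (below 0.35, 0.35 to below 0.6, and 0.6 or more). Points are library means and the open circle is the library that chose the members; in the CpG-poor panel the 4 libraries with 5-azadC lie at 69.6% to 72.8%, below the 77.1% to 79.7% of the 3 others, and in the CpG-rich panel C29 replicate 2 is lowest at 60.9%.

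Counts of single members had the same order. In 31 CpG-poor members (10.5%) all 4 libraries with 5-azadC were below the 3 others and in 1 (0.338%) above. The counts were 19 (6.74%) and 10 (3.55%) for intermediate and 4 (4.12%) and 2 (2.06%) for CpG-rich members. Over all covered promoters the shares were 3.01% below and 1.51% above, near those of the CpG-rich members. At an unadjusted edgeR p below 0.05 for 5-azadC, 34 CpG-poor members were lower and 0 higher. Of intermediate members 28 were lower and 10 higher, and of CpG-rich members 8 were lower and 7 higher. For C29 the CpG-rich class held 19 lower and 5 higher, and the CpG-poor class 8 lower and 7 higher. Of all promoters, 4.73% for 5-azadC and 4.2% for C29 had such a p, in both directions together. Shares over all promoters of each class were not counted, and direction was again that of the plain means and not of the fitted term. C29 replicate 2, the lowest library of the CpG-rich class, entered these C29 counts, and its part in them was not tested.

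Along the promoter, mean methylation of the members was over 60% in every bin of 200 bp and every library. Of their 6779 cytosine positions, counted once per member, 51.8% lay in exons, 28.0% upstream of the gene and 19.9% in introns, against 46.2%, 29.5% and 24.3% for other promoters. In vehicle replicate 2 the mean ranged from 70.4% at 400 to 200 bp before the start to 86.4% at 1000 to 800 bp before it, and was 70.8% in the last 200 bp before and 75.6% in the first 200 bp after the start. With each cytosine counted equally, upstream positions averaged 71.0% without and 69.2% with 5-azadC, exons 70.2% and 69.0%, and introns 70.7% and 68.9%. Single cytosines within a member varied more, with a median SD of 22.2 points. At 80% or more were 56.1% of cytosines and at 20% or less 8.70%, and 236 members held at least 1 cytosine at 20% or less.

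**Figure D4:**
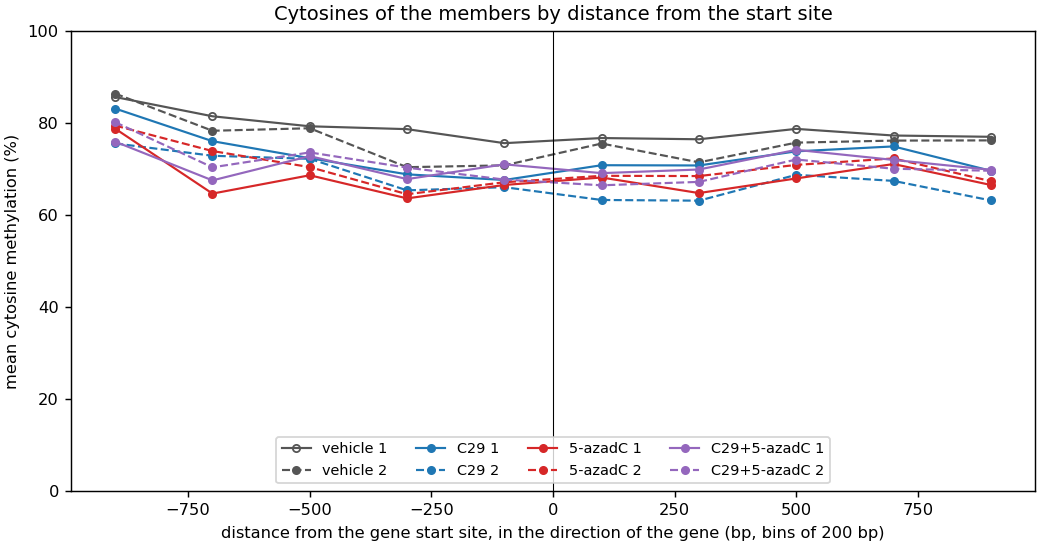
Mean methylation of the cytosines of the members (percent, vertical axis) by distance from the gene start in the direction of the gene (bp, bins of 200 bp), 1 line per library, solid for replicate 1 and dashed for replicate 2. In vehicle replicate 2 the bins before the start are lowest, at 70.4% and 70.8%, against 86.4% in the bin farthest upstream and 75.6% in the bin after the start.

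Most covered genes of the germline list were members. Of 50 genes listed for germ cell and meiotic functions 30 were covered and 23 (76.7%) were members, against 5.83% of all covered promoters. Their mean was 85.4% in vehicle replicate 2, 86.2% and 85.8% with C29, 79.9% and 81.4% with 5-azadC and 83.9% and 82.4% with the combination. All 4 libraries with 5-azadC were below the 3 without it, an average difference of -3.88 points (81.9% ± 1.67, n = 4, against 85.8% ± 0.387, n = 3, SD), while members outside the list differed by -3.83 points.

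Within the list, promoters of meiotic chromosome proteins (Sycp1, Sycp2, Sycp3, Hormad1, Hormad2, Smc1b, Majin, Rnf212) and of the piRNA pathway (Mael, Piwil2, Tdrd1, Ddx4, Pnldc1) were among the members. Tdrd1, a Tudor protein, was at 90.5% in vehicle replicate 2, 94.1% and 94.4% with C29, 87.8% and 82.3% with 5-azadC, and 86.6% and 83.8% with the combination, a difference of -7.89 points without overlap (edgeR adjusted p = 0.573). Sohlh2 and Sycp1 were the other germline members without overlap, at -16.9 and -4.66 points. Leaving out single libraries moved the difference of Sohlh2 between -19.9 and -10.5 points. Ddx4, the vasa helicase, was at 79.8% in vehicle replicate 2 and at 87.1% to 92.0% in the 4 libraries with 5-azadC, so that it was not lower. Dazl, an RNA-binding protein of germ cells, had the most reads of the 23 in its shallowest library (1283) and was at 55.3% to 69.8% in the 7 libraries. None of the 23 passed the adjusted threshold.

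**Figure D5:**
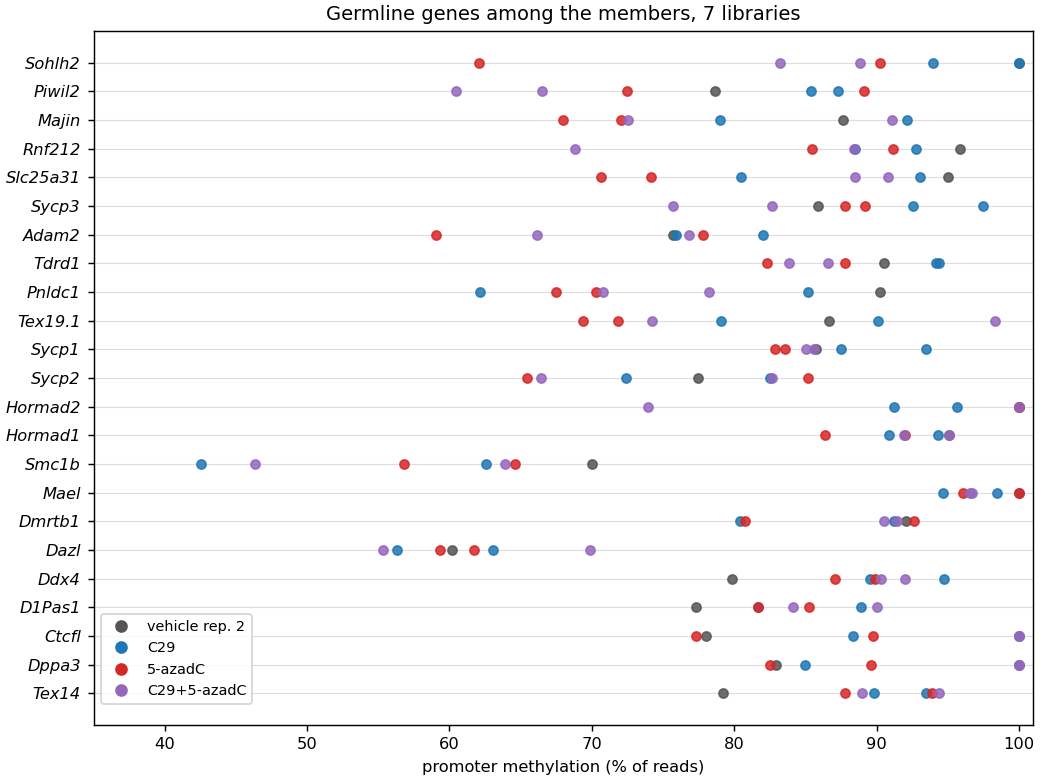
Methylation (percent of reads, horizontal axis, from 35%) of the 23 germline members in the 7 libraries not used to choose them, 1 gene per row, ordered by the difference with 5-azadC from the most negative (Sohlh2, -16.9 points) to the most positive (Tex14, 3.75 points). Points are libraries, colored by group, and points of equal value overlie each other.

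The letters TCCCGC, searched on both strands from 250 bp before to 50 bp after the start, were found in 37.2% of all covered promoters, 19.11% of members and 12 of the 23 germline members (52.2%). The letters CACGTG, an E-box that reads the same on both strands and can overlap the first by at most 1 base, were found in 10.3% of all covered promoters, 7.41% of members and 7 of the 23 germline members (30.4%). CACGTG is held by the printed stretches of Sycp1 and Hormad1. A match gives the letters only and no binding.

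Other tissue lists were small after coverage. Of listed genes for muscle 5 of 13 covered were members (Des, Lmod3, Myoz1, Pygm, Tnni3), for liver and secreted proteins 2 of 5 (Apoa4, Hnf4a), and for epidermis and secretory mammary cells 2 of 6 (Dsc3, Krt10). For neurons 0 of 16 covered genes were members. The 5 muscle members had a mean of 78.2% in vehicle replicate 2, 65.7% and 63.7% with C29, 64.3% and 52.9% with 5-azadC, and 58.2% and 70.9% with the combination. Their libraries with and without 5-azadC overlapped.

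Of 21 covered genes listed as tumor suppressors 3 were members (14.3%), Cdkn1c, Prdm1 and Irf4. Cdkn1c, an imprinted cell cycle inhibitor, was at 100% in vehicle replicate 2, 57.3% and 54.8% with C29, 44.2% and 32.9% with 5-azadC, and 63.2% and 60% with the combination (edgeR adjusted p = 0.918), from as few as 50 reads. Irf4, an interferon regulatory factor of lymphocytes, was measured at 3 cytosines by 72 to 258 reads. It was at 70.3% in vehicle replicate 1, 64.5% in vehicle replicate 2, 42.4% and 63.6% with C29, 37.5% and 28.3% with 5-azadC, and 62.8% and 34.3% with the combination, so the libraries overlapped (-16.1 points, edgeR adjusted p = 1). Prdm1, a transcriptional repressor that drives plasma cell differentiation, was at 59.8% to 100% with 5-azadC and 73.7% to 100% without it.

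Among gene families named by symbol, keratins had 9 members of 14 covered (64.3%) and protocadherins 10 of 31 (32.3%), while ribosomal proteins of the small subunit had 0 of 33 and NADH dehydrogenase subunits 0 of 20. Hox genes had 5 of 32 (15.6%) and zinc finger genes named Zfp 5 of 239 (2.09%). The 9 keratins had a mean of 74.8% in vehicle replicate 2, 84.9% and 81.3% with C29, 78.9% and 78.7% with 5-azadC, and 76.4% and 76.1% with the combination. The 5 Hox genes had 61.7% in vehicle replicate 2, 57.5% and 45.9% with C29, 62.8% and 70.4% with 5-azadC, and 83.2% and 63.9% with the combination. All 4 libraries with 5-azadC were above the 3 without it, with 62.8% and 61.7% the nearest values. Single genes differed by -1.22 points (Hoxa6) to 37.0 points (Hoxb1, with 4 cytosines and as few as 84 reads). Hoxd8 turned negative at a coverage minimum of 20 reads. The 10 protocadherins had 80.5%, then 82.3% and 71.7%, 83.0% and 76.3%, and 83.3% and 77.3% in the same order, and their libraries overlapped.

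The 5 members with most measured cytosines were Tmem267, 3110070M22Rik, Rbm46, Cdh4 and Sall3. Tmem267 and 3110070M22Rik, which start 344 bp apart in opposite directions and share most of their cytosines, had 95 cytosines each and at least 21130 reads in every library. Tmem267 was at 85.4% in vehicle replicate 2, 84.1% and 87.1% with C29, 83.3% and 82.0% with 5-azadC, and 81.8% and 84.9% with the combination. Rbm46, an RNA-binding protein of meiosis, had 88 cytosines and was at 69.4% to 84.7% in the 7 libraries, and Cdh4, R-cadherin, had 85 and was at 57.6% to 71.0%. Sall3, a zinc finger transcription factor, had 84 and ranged most widely, from 35.8% with C29 to 72.0% in vehicle replicate 2. In these 3 the groups with and without 5-azadC overlapped. Leaving out the 5 members with over 20000 reads in every library moved the mean difference with 5-azadC to -3.84 points from -3.83.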

How the data were processed

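RRBS was measured in 8 libraries, 2 per treatment. Per the submitters' processing notes and the paper's methods, FastQC 0.11.8, Trim Galore 0.4.1, Bismark 0.20.0 and methylKit 1.7.0 were used on mm10/GRCm38; the sources used here give no settings. The deposited tables, made by the authors, list covered CpG cytosines of either strand with its methylated fraction and its read count, without normalization. Fraction times count was rounded to methylated reads (whole within 0.01 for at least 99.9997% of cytosines). All 406091 cytosines in promoters were checked to lie in a CG of the genome.

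All promoters were tested together on read counts of both methylation states (quasi-likelihood test of edgeR 4.0.16, terms for 5-azadC and C29; limma 3.58.1 as an alternative; R 4.3.3) in 7 libraries, without vehicle replicate 1. The members and gene lists were chosen with earlier results of these data known. The negative binomial dispersion was set to 1e-06, so that the quasi-likelihood dispersion carries the spread, after the estimated one had recovered few shifted promoters in simulated data and its call count had been seen. Means were taken with Python 3.11.15, NumPy 2.4.6 and SciPy 1.17.1, and figures with matplotlib 3.10.9. The promoter test was checked on simulated data, with 200 promoters shifted by 30 points. At a simulated overdispersion (spread beyond counting error) of 0.005, 0.03 and 0.08 it found 200, 159 and 11 of them. False calls numbered 3, 14 and 1. At the widest spread most such shifts therefore went uncalled. In a logistic fit of the real reads, the variance of the members was a median of 18.8 times that of counting error. This is another scale, and the members were not placed among the simulated settings. Pools of 2 mice are the replicates. The edgeR p-values set a difference against the spread between these pools, estimated with information shared over promoters, and vehicle entered as 1 pool.

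The text names the 8 largest decreases without overlap, the 8 members of highest lowest-library methylation, the 4 largest increases (at least 200 reads in each library), the 3 promoters on each side of the threshold, the 5 members with most cytosines, those of lowest p that were called, and list members of most reads; not each is described. Alternatives covered coverage, cytosine number, promoter extent, threshold, choosing library, test, replicate block and left-out libraries. The count for the blood cell list is not reported here.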

Additional observations from a re-analysis of the deposited data

Results flagged for a closer look

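In 1 member, Sall3, a zinc finger transcription factor gene, the effect of 5-azadC differed between tumors with and without C29 (edgeR quasi-likelihood test of the interaction, adjusted p = 0.0192 over all 11576 promoters, with 4 promoters called in all and 67 members, 9.93%, at an unadjusted p below 0.05, against 3.85% of all promoters). Over 84 cytosines Sall3 was at 72.0% in vehicle replicate 2, 47.9% and 35.8% with C29, 52.8% and 57.7% with 5-azadC, and 65.3% and 54.3% with C29+5-azadC. The vehicle group is 1 library in this test, assumed to vary like the others, and vehicle replicate 1, which chose the member, was at 67.0%.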

How the results depend on the processing

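The difference of the member mean with 5-azadC was negative under each alternative run, from -2.35 to -5.75 points with single libraries left out; adding vehicle replicate 1, which the selection made high, gave -5.67 points. With a coverage minimum of 20 reads there were 411 members, with at least 5 cytosines 436, and with the 1000 bp upstream of the start only 306. Leaving out single libraries gave -1.86 to 2.46 points for C29, -6.78 to -2.06 for C29 minus vehicle replicate 2, -3.86 to 0.865 for the combination minus C29, 0.704 to 2.72 for the combination minus 5-azadC, -5.57 to -0.849 for 5-azadC minus C29, 3.77 to 8.50 for the interaction, -1.29 to 4.16 for CpG-rich members and -10.4 to -6.22 for CpG-poor minus CpG-rich members. With 8 libraries C29 differed by -2.46 points and the interaction was 8.34 points, upstream only the combination minus vehicle replicate 2 was -3.22 and vehicle replicate 2 minus replicate 1 was -7.34, and the median over members of the latter was -2.12. Counts of members called are given with those over all 11576 promoters in brackets, or over the promoters left by the setting. For 5-azadC 0 were called without the 0.1% of cytosines of highest coverage (14) and upstream only (13). The F test (0), limma (0) and a minimum of 10 points also gave 0 members. With 8 libraries 7 were called (31), and with the likelihood-ratio test without overdispersion 498 (6610). The dispersion edgeR estimates gave 1 (1), and single libraries left out gave 1 to 3 (1 to 14). Counts for C29 were 6 at 20 reads (10), 1 upstream only (6), 1 on selection by vehicle replicate 2 (3), 10 with 8 libraries (20) and 447 with the likelihood-ratio test (6487). Hoxd8 turned to -10.8 points at 20 reads and -0.756 upstream only, and Nt5c3b to -1.06 upstream only and -1.55 with each cytosine equal. The cause of these changes was not tested.

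The labels do not say that replicate numbers pair the libraries. Correlations between groups of the replicate difference were -0.0541 to 0.0926 over all promoters and -0.0746 to 0.214 over members, the highest for C29 and C29+5-azadC. With the replicate block the 5-azadC difference was -3.86 points and that of C29 -0.0067 points. It called 2 members for each, against 11 promoters for 5-azadC and 2 for C29 over all 11576. The estimated dispersion, the 3 equal CpG groups, the left-out libraries for CpG classes and germline genes, and the set without the deepest members were added after seeing the data. With 7 libraries and a median of 294.5 reads per member, a difference of a few points in 1 promoter of usual depth was within the spread between pools, and tumor pools of 1 cell line are the only replicates.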
